A study of Canis lupus familiaris with 6 samples.

Results

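Prostaglandin E2 synthesis and receptor genes were examined in β-cat ΔN/RasV12 cells that grew alone or among β-cat ΔN neighbours. The genes were chosen because cyclooxygenase 2 and prostaglandin E2 are known to modulate the extrusion of RasV12 cells from epithelia. Members were the non-control probes whose gene name in the array design was PTGS1, PTGS2, PTGES, PTGES2, PTGES3, PTGER2, PTGER3, PTGER4, HPGD or PLA2G4A. All 10 genes had a probe, out of 34378 gene names or identifiers in the design, and together they had 16 of the 43603 probes.

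All samples were MDCK cells, a dog kidney epithelial line, in which tetracycline switches on RasV12, the constitutively active Ras oncoprotein, fused to GFP (MDCK-pTR GFP-RasV12). They also carried mCherry-β-catenin Δ131, a stabilised β-catenin without its N-terminus, expressed without induction from a vector with the EF1 promoter. In single culture they grew alone (3 arrays). In mix culture they grew with 10 MDCK mCherry-β-catenin Δ131 cells, which lack RasV12, for each RasV12 cell (3 arrays). Both cultures stood on collagen-coated 10 cm dishes and received tetracycline for 24 h, and the GFP-positive fraction was then sorted for total RNA, which was hybridised to Agilent canine arrays with 1 colour. Both groups thus carried the stabilised β-catenin and RasV12, and by the labels they differed in their neighbours. The HRAS probe, the Ras gene that was checked, gave -0.62 in log2 of mix over single culture (SE 0.28; -0.47 on slide 1 and -0.70 on slide 2), with an adjusted p of 0.608 by limma and 0.065 with the slide as a block, and the 4 CTNNB1 (β-catenin) probes gave 0.15 to 0.27 and were not called. Whether these probes read the introduced sequences was not examined, and the bearing of these values on the members was not tested. The labels do not say whether the 3 samples of a group came from separate cultures, so p-values measure the spread between these samples alone, which may be technical. In sorted bulk RNA, fewer cells that express a gene and less of its RNA per cell cannot be told apart.

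Prostaglandin E2 is made in sequence. Cytosolic phospholipase A2 (PLA2G4A) releases arachidonic acid from membranes, the cyclooxygenases (PTGS1 and PTGS2) convert it to prostaglandin H2, and prostaglandin E synthases (PTGES, PTGES2, PTGES3) isomerise this to prostaglandin E2. The lipid acts on neighbouring cells through the EP receptors, of which EP2 (PTGER2) and EP4 (PTGER4) raise cyclic AMP and EP3 (PTGER3) mostly lowers it, and 15-hydroxyprostaglandin dehydrogenase (HPGD) inactivates it. PTGS2 is the inducible cyclooxygenase of inflammation and of many tumours, and in the kidney prostaglandin E2 regulates salt and water handling.

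Probes for PLA2G4A and PTGES2 are shown because they decide how many separate measurements of these genes the array holds. Each is 60 bases long, is written 5′ to 3′ as in the deposited scanner files, and lies on the plus strand of CanFam3.1 by the array design. The 2 PLA2G4A probes share no sequence. The upstream one was placed at chr7:19908905-19915076, so that its 60 bases cover 6172 bases of genome, and the downstream one at chr7:19946185-19946244. The 2 PTGES2 probes, at chr9:55347078-55347137 and chr9:55347084-55347143, share the 54 bases in capitals and are close to a repeat of 1 measurement.
PLA2G4A upstream (A_11_P210098): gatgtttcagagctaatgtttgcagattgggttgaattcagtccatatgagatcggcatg
PLA2G4A downstream (A_11_P0000024961): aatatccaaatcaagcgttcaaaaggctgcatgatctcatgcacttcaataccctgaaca
PTGES2 first (A_11_P0000025529): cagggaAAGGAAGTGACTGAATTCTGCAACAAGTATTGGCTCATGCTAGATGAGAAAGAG
PTGES2 second (A_11_P204653): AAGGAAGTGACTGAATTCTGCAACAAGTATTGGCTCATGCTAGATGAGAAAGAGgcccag

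Across the 6 arrays, 61.11% to 65.66% of non-control spots were well above background, and the 75th percentile of the signal ranged from 161 to 233 intensity units. Replicate 1 of each group lay on slide 1 and replicates 2 and 3 on slide 2, which was scanned at 5 µm rather than 3 µm per pixel. Between slides, limma called 47.2% of the 26623 probes tested. Of the epithelial markers, CDH1, CLDN4, EPCAM, KRT18, OCLN and CDH16 had a probe well above background on all arrays, while the leukocyte marker PTPRC, the mesenchymal markers COL3A1, DCN and PDGFRA and the endothelial marker TEK had none on any array. The leukocyte list had 4 of 6 genes, the mesenchymal list 2 of 6 and the endothelial list 3 of 5 above background on all arrays, and none of their probes was called in either fit. Summed over the probes of a list, in multiples of the array's 75th percentile, the epithelial signal was 460 to 566 in single and 377 to 465 in mix cultures, the leukocyte signal 1.55 to 1.89 and 1.47 to 1.7, the mesenchymal signal 1.05 to 2.15 and 0.9 to 1.79, and the endothelial signal 5.61 to 14.2 and 4.76 to 14.5. With the slide in the model, the 3 probes of CDH1 and the probe of CLDN4 were lower in mix culture (adjusted p of 0.0136 to 0.047, limma). These were 4 of the 11 epithelial probes tested (36.4%, against 7.2% of all probes), while 0 of the 11 were called without the slide. The share of this in the members' values was not tested.

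No prostaglandin E2 gene passed the test between cultures when the slide was left out of the model. Of the 16 probes, 12 probes of 7 genes were tested, since all arrays of single culture, of mix culture or of both read them well above background. limma called 0 of these 12 at an adjusted p under 0.05, where it called 0.883% of all probes tested (235 of 26623). Unadjusted p-values were under 0.05 for 2 of the 12 with limma (8.71% of all probes) and for 2 with the methods' unpaired test (9.73% of all probes), which also called 0 after adjustment. Those of limma with the slide block were under 0.05 for 4 of the 12, and for 25.9% of all probes. With the slide as a block, 1 member probe (8.33%) was called, that of PLA2G4A, against 7.2% of all probes, and it was lower in mix culture, as were 3.22% of all probes, whereas none was higher, as were 3.98% of all probes. With the replicate number as a block, the same probe was the 1 call, against 5.25% of all probes. The share of member probes called was thus close to the background.

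The members were spread on both sides of 0. Changes (log2 of mix over single culture) ranged from -0.76 to 0.44 with a median of -0.16, where the median of all tested probes was -0.05. Of the 12 probes, 3 were on the higher side and 9 on the lower side, while over all probes 11192 were higher and 15431 lower. The groups did not overlap for 2 of the 12 probes (16.7%), 1 of PLA2G4A and 1 of PTGES, against 16.5% of all probes.

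**Figure D1:**
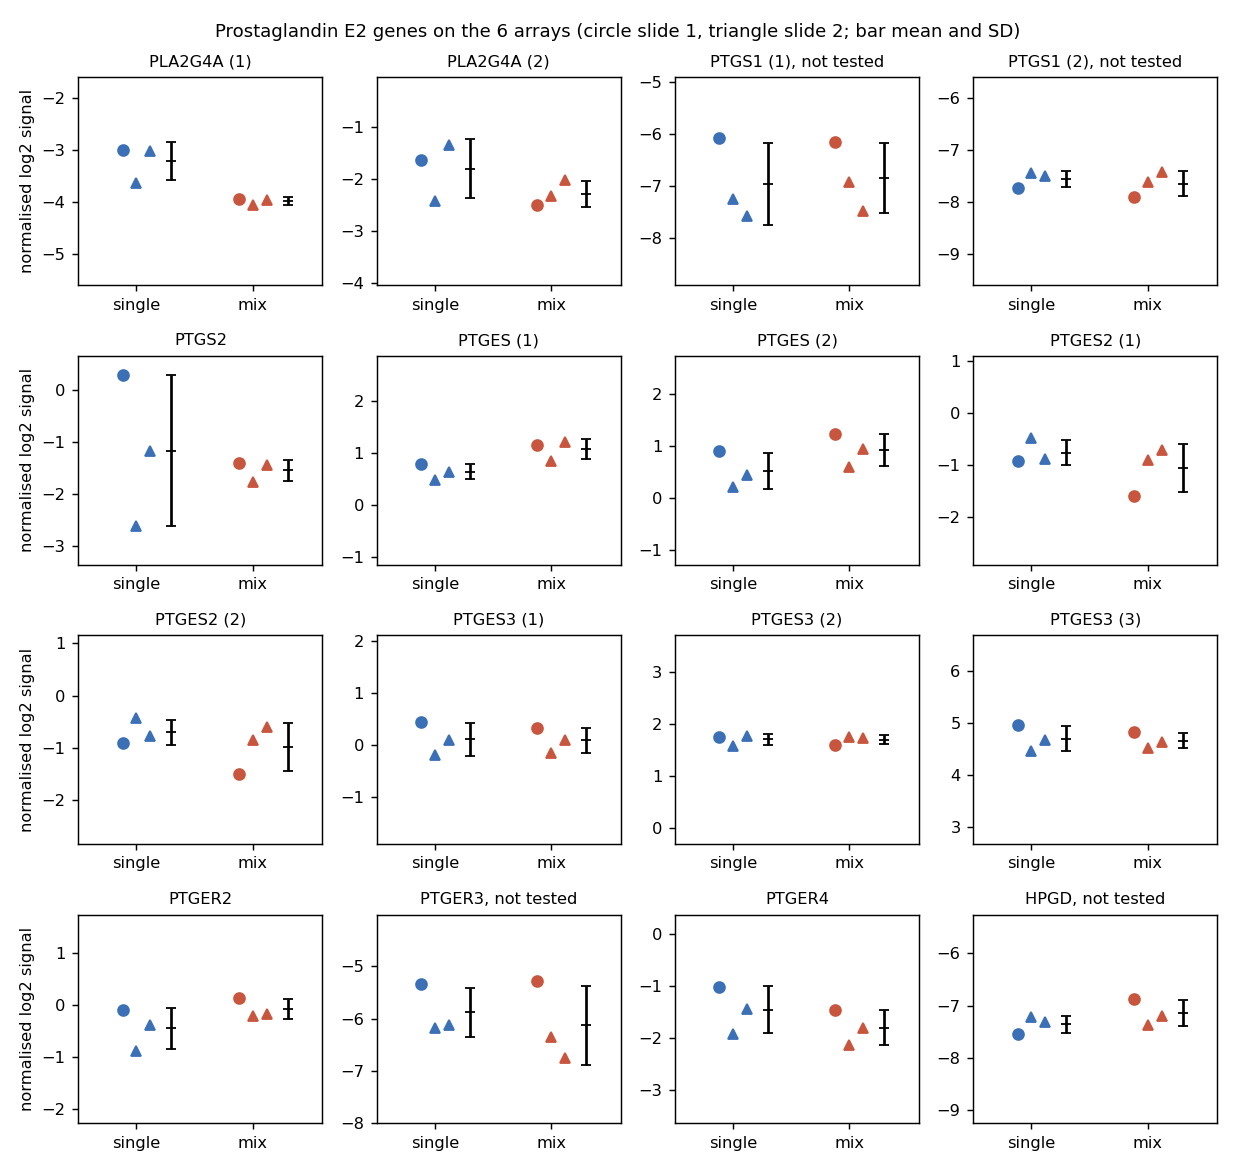
Normalised log2 signal (the y axis, log2 of the intensity minus the array's 75th percentile) of all 16 member probes on each array, single culture in blue and mix culture in red, circles for slide 1 and triangles for slide 2, with bars for the mean and SD of 3 arrays. Numbers in brackets count a gene's probes along its transcript. PTGS2 spread over nearly 3 log2 units among the single cultures (-2.61 to 0.29) and little among the mix cultures (-1.77 to -1.41), while the PLA2G4A upstream probe separated the cultures. Panels differ in position on the y axis, and levels should not be set against each other between probes.

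PLA2G4A, which supplies arachidonic acid to the pathway, was the member with the largest change. Its upstream probe read 25.9, 13.3 and 21.3 intensity units in single cultures 1, 2 and 3, and 15.2, 10.9 and 10.4 in mix cultures 1, 2 and 3. After normalisation the single cultures stood at -2.99, -3.64 and -3.02 and the mix cultures at -3.93, -4.06 and -3.95 on the log2 scale. All 3 mix cultures were below all 3 single cultures. The mean went from -3.22 ± 0.37 to -3.98 ± 0.07 (SD, n = 3), a difference of -0.76 on the log2 scale (SE 0.21), or 1.7-fold lower, with an adjusted p of 0.272 by limma. It was -0.94 within slide 1 and -0.67 within slide 2. With the slide as a block limma gave an adjusted p of 0.035 (SE 0.17), and with the replicate block 0.0282, or 0.048 when mix culture replicates 2 and 3 were exchanged, as they are in the authors' table. The signal was dim, and background correction by normexp, which adds an offset of 50 units, left a difference of -0.19 (adjusted p 0.998, limma). The call with the slide block was lost without any 1 of 5 arrays (differences of -0.82 to -0.61, adjusted p of 0.0864 to 0.155, limma). Of these fits, those without replicate 1 of either group both rest on slide 2 alone (-0.67) and are not separate. The call was kept without single culture replicate 2 (a difference of -0.97, adjusted p 0.0068, limma).

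The downstream PLA2G4A probe was brighter and more variable. It read 66, 30.8 and 67.8 units in the single cultures and 40.7, 35.7 and 39.4 in the mix cultures. After normalisation single culture replicate 2 (-2.44) lay within the range of the mix cultures (-2.51 to -2.03), while the other 2 single cultures were above all of them, so the groups overlapped. The difference was -0.49 on the log2 scale (SE 0.30, adjusted p 0.774, limma; 0.285 with the slide block), with -0.88 within slide 1 and -0.29 within slide 2. Without single culture replicate 2, the fit with the slide block gave -0.85 with an adjusted p of 0.0183 by limma. The count of member probes called went from 1 to 2 (16.7%), both of PLA2G4A. The share of all probes called in that fit was not counted, so this count has no background beside it. Single culture replicate 2 was the lowest of the single cultures for 10 of the 12 member probes, as it was for 32.5% of all probes tested.

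PTGS2, the inducible cyclooxygenase, was the most variable member among the single cultures. Its probe (A_11_P050666, chr7:19668185-19668244 on CanFam3.1, minus strand) read 251, 27.4 and 76.7 units in single cultures 1, 2 and 3, a range of signals that enclosed the 87.4, 52.9 and 58.9 units of mix cultures 1, 2 and 3. The highest and the lowest array of the 6 were thus both single cultures. On the normalised log2 scale the single cultures averaged -1.16 ± 1.45 and the mix cultures -1.55 ± 0.20 (SD, n = 3). The SD among the single cultures exceeded that of 99.7% of the probes tested, whereas the SD among the mix cultures exceeded that of 37.4%. Both SDs include any difference between the slides. Among the single cultures the slide 1 array stood at 0.29 and the slide 2 arrays at -2.61 and -1.17. No test of the difference between the spreads of the 2 cultures was run.

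The PTGS2 difference between cultures was -0.38 on the log2 scale (SE 0.65, adjusted p 0.959, limma), and its 95% interval of -1.91 to 1.15 holds sizeable falls and rises. Adding the slide block narrowed the interval to -1.44 to 0.67 (adjusted p 0.618, limma). The direction differed between slides, at -1.70 on slide 1 and 0.28 on slide 2. The change on slide 2 exceeded that on slide 1 by 1.97, a difference that did not pass its own test (adjusted p 0.475 for the interaction, limma), where 0.0376% of all probes did and 0 of the 12 members. Without single culture replicate 1 the difference was 0.34, and without single culture replicate 2 it was -1.10.

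PTGS1, the constitutive cyclooxygenase, was not well above background on any array. Its 2 probes (A_11_P051156 and A_11_P0000019749, chromosome 9) read 0.901 to 3.27 and 0.933 to 0.971 units, where the lowest signal of a spot well above background was 4.19 to 4.48 units. The 2 readings of the upstream probe above 3 units, 3.03 and 3.27, were the slide 1 arrays of single and mix culture. PTGS2 was therefore the cyclooxygenase with a measured signal on these arrays.

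**Figure D2:**
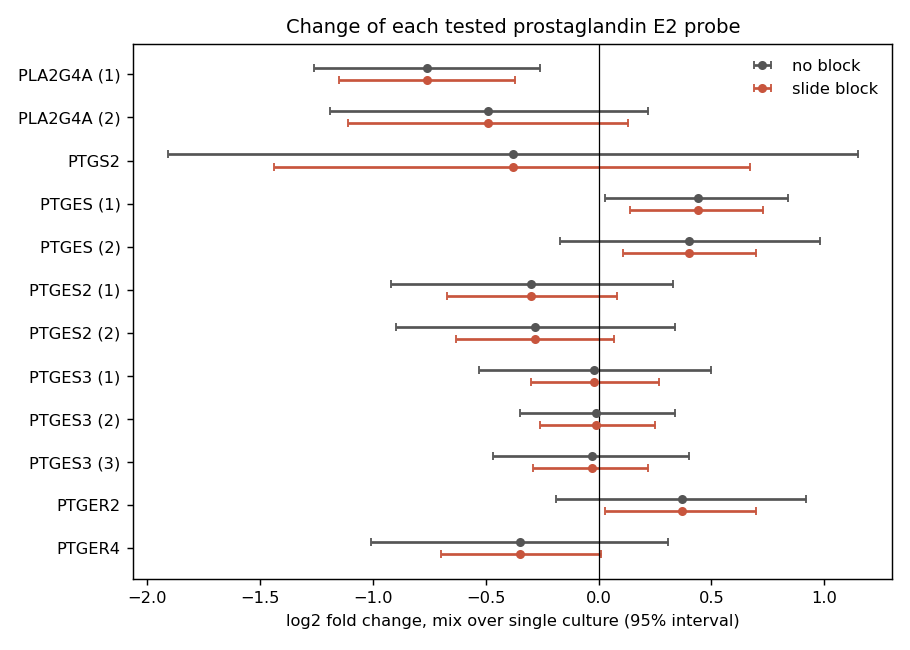
Change of each of the 12 tested member probes (x axis, log2 of mix over single culture), with its unadjusted 95% interval from limma, in grey without a block and in red with the slide as a block. The intervals of the PLA2G4A upstream probe and of the first PTGES probe leave out 0 in both fits, and the interval of PTGS2 is the widest, at -1.91 to 1.15 without a block.

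PTGES, the inducible synthase that is often coupled to PTGS2, had higher values in mix culture. Its 2 probes, at chr9:54082160-54082219 (A_11_P050041) and chr9:54082175-54082234 (A_11_P0000025517), share 45 of 60 bases and are not separate evidence. The first read 353, 235 and 270 units in the single cultures and 522, 326 and 374 in the mix cultures. On the normalised log2 scale the mix cultures (0.85 to 1.22) lay above all single cultures (0.49 to 0.78). The difference was 0.44 (SE 0.17, 1.35-fold) and did not pass the test (adjusted p 0.531 by limma, 0.0821 with the slide block and 0.0846 with the replicate block). It was nearly the same within slide 1 (0.38) and within slide 2 (0.46). The other probe gave 0.40 (SE 0.24, adjusted p 0.771 by limma, 0.103 with the slide block), and there the groups overlapped. In the table of processed values deposited by the authors, every probe's median within each slide is 0, a centring that limma does not count. There limma called both PTGES probes (0.44 and 0.41, adjusted p of 0.0393 and 0.0472), as it did 15.3% of all probes. The other member probe called there was PLA2G4A upstream (-0.77, adjusted p 0.0321, limma).

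PTGES2, the Golgi-associated synthase, had lower means in mix culture and did not pass the test. The first of the probes shown above read 109, 120 and 93.6 units in the single cultures and 77.9, 97.4 and 99.4 in the mix cultures, and the groups overlapped. Its difference was -0.30 (SE 0.26, adjusted p 0.875 by limma, 0.278 with the slide block), and that of the second was -0.28 (SE 0.26, adjusted p 0.888, limma). Within slide 1 they were -0.66 and -0.60, and within slide 2 both were -0.12. This pair was the one called higher between slides, lying higher on slide 2 by 0.51 and 0.54 on the log2 scale (adjusted p of 0.0404 and 0.0252, limma).

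PTGES3, the cytosolic synthase that is also the HSP90 co-chaperone p23, had the smallest differences. Its 3 probes on chromosome 10 gave -0.02, -0.01 and -0.03 on the log2 scale (SE of 0.22, 0.15 and 0.18, adjusted p of 0.986 to 0.996, limma). The most upstream probe (A_11_P000006) read 147 to 278 units in single and 164 to 294 in mix culture, the middle one (A_11_P183863) 503 to 691 and 539 to 706, and the most downstream one (A_11_P127901) 3660 to 6340 and 3980 to 6580. For all 3 the groups overlapped almost wholly. With the slide block all 3 of their 95% intervals lay between -0.30 and 0.27. The sign of these small values turned with several settings, quantile normalisation and slide 2 alone among them.

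The 2 measured receptors that raise cyclic AMP lay on opposite sides of 0. The PTGER2 probe (A_11_P0000019888, chromosome 8) read 192, 90.5 and 133 units in single cultures and 256, 157 and 142 in mix cultures. Its mean went from -0.45 ± 0.40 to -0.08 ± 0.19 (SD, n = 3), a difference of 0.37 (SE 0.23, adjusted p 0.785 by limma, 0.162 with the slide block). It was 0.24 within slide 1 and 0.43 within slide 2. The groups overlapped, since single culture 1 was above mix cultures 2 and 3.

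The PTGER4 probe (A_11_P0000019778, chromosome 4) read 102, 44.4 and 63.9 units in single cultures and 84.8, 41.3 and 45.9 in mix cultures. The difference was -0.35 (SE 0.28, adjusted p 0.850 by limma, 0.199 with the slide block), at -0.45 within slide 1 and -0.30 within slide 2. The groups overlapped, and on each slide the mean of mix culture was the lower one. Neither receptor passed the test, and whether their changes differ from each other was not tested.

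PTGER3, the receptor that mostly lowers cyclic AMP, was near the limit of detection. Its probe (A_11_P0000019685, chromosome 6) read 5.09, 2.29 and 2.47 units in single cultures and 5.98, 2.21 and 1.49 in mix cultures, and it was well above background on the slide 1 array of each group and on no array of slide 2. It was not tested. A further 48 probes were described in the design as partial matches to an EP3 receptor, but carried a cluster identifier as their gene name and were not members. HPGD, which inactivates prostaglandin E2, was not well above background on any array (A_11_P0000029880, chromosome 25), at 1.08 to 1.11 units in single and 1.09 to 1.99 in mix culture.

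**Figure D3:**
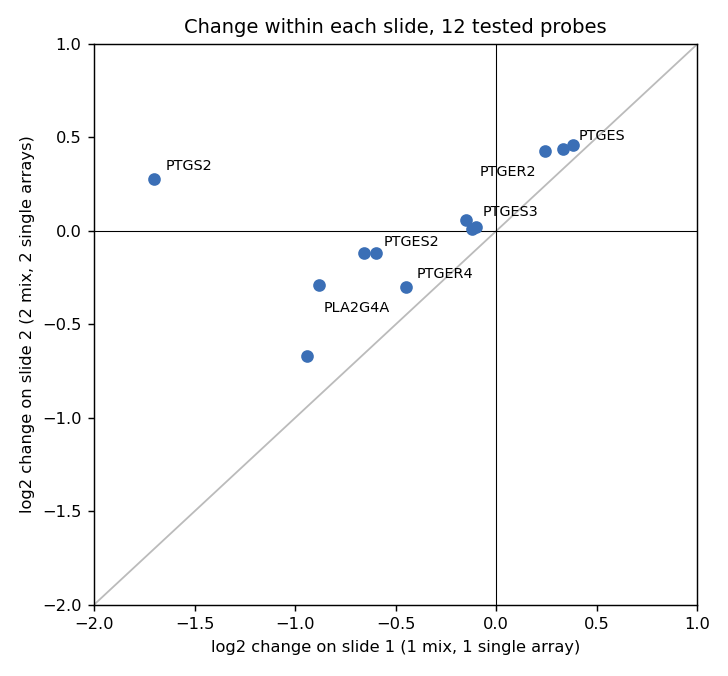
Change of the 12 tested member probes within slide 1 (x axis, 1 array of each culture) and within slide 2 (y axis, means of 2 arrays of each culture), in log2 of mix over single culture, with the line of equal change in grey. PTGES and PTGER2 lay above 0 on both slides and PLA2G4A, PTGES2 and PTGER4 below 0 on both, while PTGS2 went from -1.70 on slide 1 to 0.28 on slide 2.

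Between slides, 6 of the 12 member probes were called by limma with the culture in the model (against the 47.2% of all probes), 4 of them lower and 2 higher on slide 2. The 4 that were lower were those of PTGER2, PTGER4, 1 PTGES probe and 1 PTGES3 probe, with differences of -0.42 to -0.59 on the log2 scale. The 2 that were higher were the PTGES2 pair. In size, the difference between slides was larger than that between cultures for most member probes, as for PTGER2 (-0.43 and 0.37) and PTGER4 (-0.59 and -0.35). The same held for PTGS2 (-1.19, SE 0.49, adjusted p 0.0769 by limma, and -0.38), the PTGES2 pair, the 3 PTGES3 probes and the PTGES probe called between slides. For PLA2G4A upstream the order was the other way round, at -0.20 between slides (adjusted p 0.379, limma) and -0.76 between cultures. It was so too for PLA2G4A downstream (0.04 and -0.49) and the other PTGES probe (-0.17 and 0.44).

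PTGS2 and PLA2G4A lie close together on chromosome 7, where their nearest probes are 241 kb apart. With each slide's mean removed, the downstream PLA2G4A probe followed PTGS2 over the 6 arrays with r = 0.88 and the upstream one with r = 0.64. PTGES3, on chromosome 10, had r of 0.76 to 0.94, PTGER4 0.72, PTGES2 0.29 and 0.32, PTGER2 0.30, and PTGES -0.03 and 0.07. The share of all probes with r of this size was not counted, and a link between r and distance on the chromosome was not tested. These correlations are a description over 6 arrays that share 2 slides, with the slide 1 pair mirroring each other once its mean is removed, and they rest largely on the spread of the single cultures. Of 14722 named probes well above background on all arrays, those most like PTGS2 by the same measure were PAAF1 (a proteasome assembly factor, r = 0.998), INSIG1 (a regulator of cholesterol synthesis, 0.995), TMEM183A (0.994), PTMA (prothymosin alpha, 0.994) and NFYC (a subunit of the CCAAT-binding factor NF-Y, 0.992). None of the 5 was called between cultures, and their changes were -0.26 to -0.03 on the log2 scale.

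The rest of the pathway was followed through 92 further genes of prostanoid and eicosanoid metabolism and EP receptor signalling. Of these, 77 genes had a probe (124 probes), and 82 probes of 51 genes were tested. limma called 2 (2.44%, against 0.883% of all probes), both higher in mix culture. With the slide block it called 4 (4.88%, against 7.2% of all probes, of which 3.98% were higher), again all higher and all of CYP4A11 or PTGFRN. The median change was -0.04. The 33 probes of EP receptor signalling (G proteins, adenylyl cyclases, protein kinase A, Epac, CREB1 and arrestins) had 0 calls in either fit, with changes of -0.29 to 0.33. The other phospholipases A2 and related lipases (21 probes, -0.42 to 0.38), the other prostanoid synthases (4 probes, -0.70 to 0.44) and the lipoxygenase pathway (10 probes, -0.28 to 0.21) had 0 calls in either fit as well. Unadjusted p-values under 0.05 were counted for 6 of the 82 probes without a block, against 8.71% of all probes, and for 18 with the slide block, against 25.9% of all probes.

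**Figure D4:**
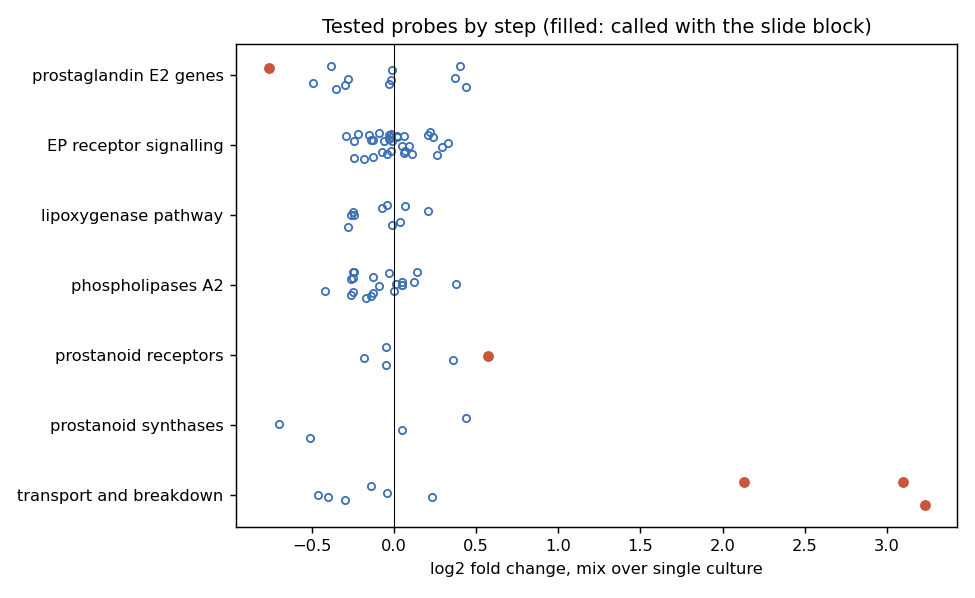
Change of every tested probe (x axis, log2 of mix over single culture) for the 12 member probes and, by step, the 82 probes of other pathway genes; points are jittered vertically, and filled red points were called by limma with the slide block. Filled points are the PLA2G4A upstream probe at -0.76, PTGFRN at 0.57 and the 3 CYP4A11 probes at 2.13 to 3.23.

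The called probes among these genes were those of CYP4A11 and PTGFRN. CYP4A11, a fatty acid omega-hydroxylase, had 3 probes. The first (A_11_P050556) read 35.5, 43.7 and 26.2 units in single cultures and 282, 283 and 368 in mix cultures. All mix cultures were far above all single cultures, and the rise was 3.1 on the log2 scale (SE 0.30, 8.58-fold, adjusted p 0.00599, limma). Another probe (A_11_P085441) rose by 2.13 (SE 0.31, adjusted p 0.0309, limma), and the remaining one (A_11_P052461) gave 3.23 (SE 0.54, adjusted p 0.0549 by limma, 0.000442 with the slide block). Genes of the CYP4A family are similar in sequence, and which family members these probes read was not examined. PTGFRN, a membrane protein that regulates the prostaglandin F2 alpha receptor, was called with the slide block for 1 of its 2 probes (0.57, adjusted p 0.616 without and 0.0287 with the block, limma; the other probe 0.36, 0.239 with the block).

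Other steps that act on prostaglandins or their precursor were measured and did not pass, with values on both sides of 0. PTGIS, which turns prostaglandin H2 to prostacyclin, read 60.7, 45.3 and 46.2 units in single and 29.4, 32.7 and 35.6 in mix cultures, and its groups did not overlap (-0.70, adjusted p 0.389 by limma, 0.0539 with the slide block). On the other side, PTGDS, which turns the same precursor to prostaglandin D2, gave 0.44 (0.813 and 0.313), and TBXAS1, the thromboxane synthase, 0.05 (0.979 and 0.797). CBR3, a carbonyl reductase, gave -0.51 (0.401 and 0.0621). ABCC4, which exports prostaglandins, gave -0.46 (0.571 and 0.0902), and PTGR1, a prostaglandin reductase, -0.40 (0.840 and 0.0595). The uptake carrier SLCO2A1 gave -0.14 (SE 0.41, adjusted p 0.977, limma), and PTGER1, the EP receptor that raises calcium, -0.05 (SE 0.30, adjusted p 0.987, limma). PTGIS, PTGDS, TBXAS1, CBR3, ABCC4, PTGR1, SLCO2A1 and PTGER1, like HRAS and CTNNB1, were named after their values had been seen.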

How the data were processed

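The authors deposited 1 scanner file per array, with spot intensity on a linear scale, background-subtracted within the array by Agilent Feature Extraction (11.5.1.1 for slide 1, 12.1.1.1 for slide 2). They also deposited a table of log2 values of the same arrays whose steps are not given in the sources used here. In it the median of each probe was 0 within each slide (within 0.02, for 100% of 43603 probes), and the columns of mix culture replicates 2 and 3 followed each other's scanner file (r = 0.992 and 0.998, own file 0.352).

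From the scanner files, log2 intensity was taken, control spots and 5 to 9 outlier spots per array were dropped, spots of a probe were averaged and the 75th percentile of the array was subtracted. Probes that all 3 arrays of a culture read as well above background were tested with limma 3.58.1 in R 4.3.3 (two-sided, Benjamini-Hochberg over 26623 probes). Errors are SD over 3 arrays or SE, and the number of arrays limits the precision. The replicate block took same-numbered arrays as pairs. These deviated together from their group means (r = 0.801, 0.53 and 0.572), but on slide 2 arrays of different numbers did so as much (0.61 and 0.632). Since replicate 1 of each group alone lay on slide 1, these values cannot show whether the numbers pair the arrays. Groups came from the sample titles.

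All members were named, with other pathway genes called with or without the slide block and the 5 probes most like PTGS2. Members and lists were chosen with earlier results of these data known. Alternatives were blocks, background, scaling, filter, source table, the methods' unpaired test, slide 2 alone and each array left out. normexp used the median spot signal, since 4 files lack the mean. Symbols and positions (CanFam3.1) are the array design's, and no exon or UTR annotation was used.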

Additional observations from a re-analysis of the deposited data

How the results depend on the processing

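Both the counts of calls and the members' changes depended on the setting. Over all probes, 235 calls became 1917 with the slide block, 1399 with the replicate block that pairs the arrays by number (1446 with mix culture replicates 2 and 3 exchanged, a setting added after seeing the data), 101 with normexp, 143 with probes above background on all arrays, 4077 with the authors' table, 8 with the methods' test and 999 on slide 2 alone, and ranged from 92 to 247 with 1 array left out. Without single culture replicate 3 it was 92, without mix culture replicate 2 it was 92 and without mix culture replicate 3 it was 99. Member calls went from 0 to 1 of 12 (8.33%) with the slide block, against 7.2% of all probes. They were 1 with the replicate block (5.25% of all probes) and 1 when exchanged (5.43%). With the authors' table they were 3 (25%, against 15.3% of all probes), those of PLA2G4A upstream and both PTGES probes. They were 0 with each array left out without a block, where 0.342% to 0.924% of all probes were called. With the slide block and 1 array left out, settings added after seeing the data as was the form of normexp used, they ranged from 0 to 2. The share of all probes called in these fits was not counted. Without replicate 1 of either group, the slide block leaves the change to slide 2, so these fits repeat slide 2 alone. Calls among other pathway genes went from 2 of 82 to 4 with the slide block (4.88%, against 7.2% of all probes). They were 1 with normexp (1.22%, against 0.379%) and 12 with the authors' table (14.6%, against 15.3%). The methods' test called 0 (against 0.03%), and slide 2 alone gave 4 (4.88%, against 3.73%). With 1 array left out they ranged from 1 to 3 (1.22% to 3.66%, against 0.342% to 0.924%). The replicate block changed no other member's call. With normexp the dimmer members shrank, to -0.19 and -0.23 for PLA2G4A upstream and downstream and -0.13 for PTGER4. The authors' table is centred on the median within each slide, which limma does not count. The members' median of -0.16 ranged from -0.19 to 0.05 with 1 array left out. Signs turned for PTGS2 (0.28 on slide 2 alone, from -1.10 to 0.34 with 1 array left out, and 0.28 with the slide block without replicate 1 of either group) and for PTGES3, whose probes ranged from -0.17 to 0.14, -0.15 to 0.09 and -0.06 to 0.04 (upstream, downstream, middle) with 1 array left out. For PTGES3 upstream, middle and downstream, the turned values were 0.01 (middle) and 0.06 (downstream) with quantile normalisation, 0.00 and 0.06 with the authors' table, 0.02, 0.06 and 0.01 on slide 2 alone, 0.14, 0.01 and 0.09 without single culture replicate 1, 0.03 (middle) without single culture replicate 3, 0.04 (middle) without mix culture replicate 1, and 0.10 and 0.03 (upstream, downstream) without mix culture replicate 2. With the slide block they were 0.02, 0.06 and 0.01 without replicate 1 of either group, 0.05, 0.03 and 0.01 without single culture replicate 3 and 0.04 (upstream) without mix culture replicate 2. The cause was not tested. With signals below about 4 units, PTGS1, HPGD and PTGER3 on slide 2 could not be compared.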
